A study of Mus musculus with 8 samples.

Results

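The interleukin receptor genes are the 33 genes on the array whose symbol begins with Il, a number and r, leaving out the receptor antagonist Il1rn, the decoy Il1r2 and Il2rb, out of 18193 genes measured in all. Their RNA was measured in GFP-positive cells sorted from kidneys of FSP1-eGFP mice on a C57BL/6 background, in which the promoter of FSP1 (S100a4) drives the reporter. The ischemic group held 5 kidneys collected 3 days after a 45-minute clamp of the left renal artery and vein, and the control group held 3 kidneys that the labels call both normal and sham. All mice were 6 months old and labelled male, and the labels describe buprenorphine given for pain after the operation. The design sets sorted cells of injured kidneys against those of uninjured ones.

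Interleukins act by joining several receptor chains on a cell, usually a private chain that binds the ligand and a chain shared by several ligands. Receptors of the IL-2, IL-6 and IL-10 groups signal through JAK kinases and STAT factors, while those of the IL-1 and IL-17 families recruit adaptor proteins that lead to NF-kappaB. In the kidney, leukocytes carry most of these receptors, and tubule cells and fibroblasts carry some, among them receptors for IL-1, IL-17 and IL-22. FSP1 marks fibroblasts in some settings and is also made by macrophages and other leukocytes.

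Values below are log2(intensity + 16) after quantile normalization, a scale that understates differences of dim probe sets; an intensity of 1 becomes 4.09, and half-way down the list of all genes the mean lies at 5.93. The level of S100a4 itself was 11.97 ± 0.27 in ischemic arrays (SD, n = 5). Normal arrays had 11.61 ± 0.32 (SD, n = 3). A mean above the median gene was found in 4 of 8 fibroblast markers, 12 of 12 macrophage and monocyte markers, 6 of 6 endothelial, 8 of 8 proximal tubule and 5 of 6 distal nephron markers. The tubule lists had the largest median differences of the 11 marker lists. Proximal tubule markers had a median difference of −3.34 with 8 of 8 negative, and distal nephron markers −2.53 with 6 of 6 negative. None had an adjusted limma p under 0.05. At an unadjusted p under 0.05 there were 7 and 5, all lower in ischemic arrays, beside 5.02% of all genes on that side. The summed intensity of the proximal tubule list ran from 2857 to 4775 in ischemic and from 11327 to 19189 in normal arrays. Ischemic 1 was least like the others: its correlations across genes had a median of 0.753, where those of the remaining arrays had medians of 0.850 to 0.913. The most alike pair of arrays came from different groups: ischemic 5 and normal 3 correlated at 0.976. Xist, which is made from an inactive X chromosome, was bright in ischemic 1 (11.21), ischemic 2 (9.39) and normal 1 (11.01). It was near the floor in the other 5 arrays (4.49 to 4.96). The mean of the Y-linked genes was 5.70 in ischemic 1 and 5.73 in normal 1, and 7.19 to 7.95 elsewhere. Both signals go against the male label of ischemic 1 and normal 1. Ischemic 2 had bright Xist beside a Y-linked mean of 7.46, like that of the 5 arrays with low Xist. The labels do not say whether the arrays came from separate mice, so p-values measure the spread between these samples.

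No interleukin receptor gene differed between ischemic and normal kidneys past the threshold, and in none did all ischemic arrays lie on one side of all normal arrays. With limma and Benjamini-Hochberg adjustment over all genes, 0 of 33 members had an adjusted p under 0.05, as did 0% of all genes tested. At an unadjusted p under 0.05 there was 1 member, Il6ra, which is 3.03% of the 33, beside 7.13% of all genes. On the higher side alone the background was 2.11% and on the lower side, where no member passed, 5.02%. Groups that did not overlap were found in 0 members and in 5.33% of all genes (1.89% with ischemic arrays higher and 3.44% with them lower). The differences (ischemic minus normal) ran from −1.27 to 0.99 with a median of 0.07, beside a median of 0.04 over all genes, and 19 of 33 were positive.

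The data bound these differences only loosely. The 95% interval of the difference contained 0 for 32 of the 33 members. For 25 members it reached beyond a difference of 1, which is 2-fold on this scale, in at least one direction. It stayed within that limit for 8 members, which were Il1rapl1, Il12rb1, Il12rb2, Il13ra2, Il3ra, Il17ra, Il20ra and Il22ra1. Of these only the probe set of Il17ra was brighter than the median gene, and for the dim ones the scale itself holds the interval narrow. The intervals had a median half-width of 0.91 and ran from 0.41 (Il1rapl1) to 1.80 (Il21r). With 1 array left out in turn, the sign of the difference turned at least once in 16 members and was kept in 17. A missed threshold therefore does not show that a receptor stayed at one level.

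**Figure D1:**
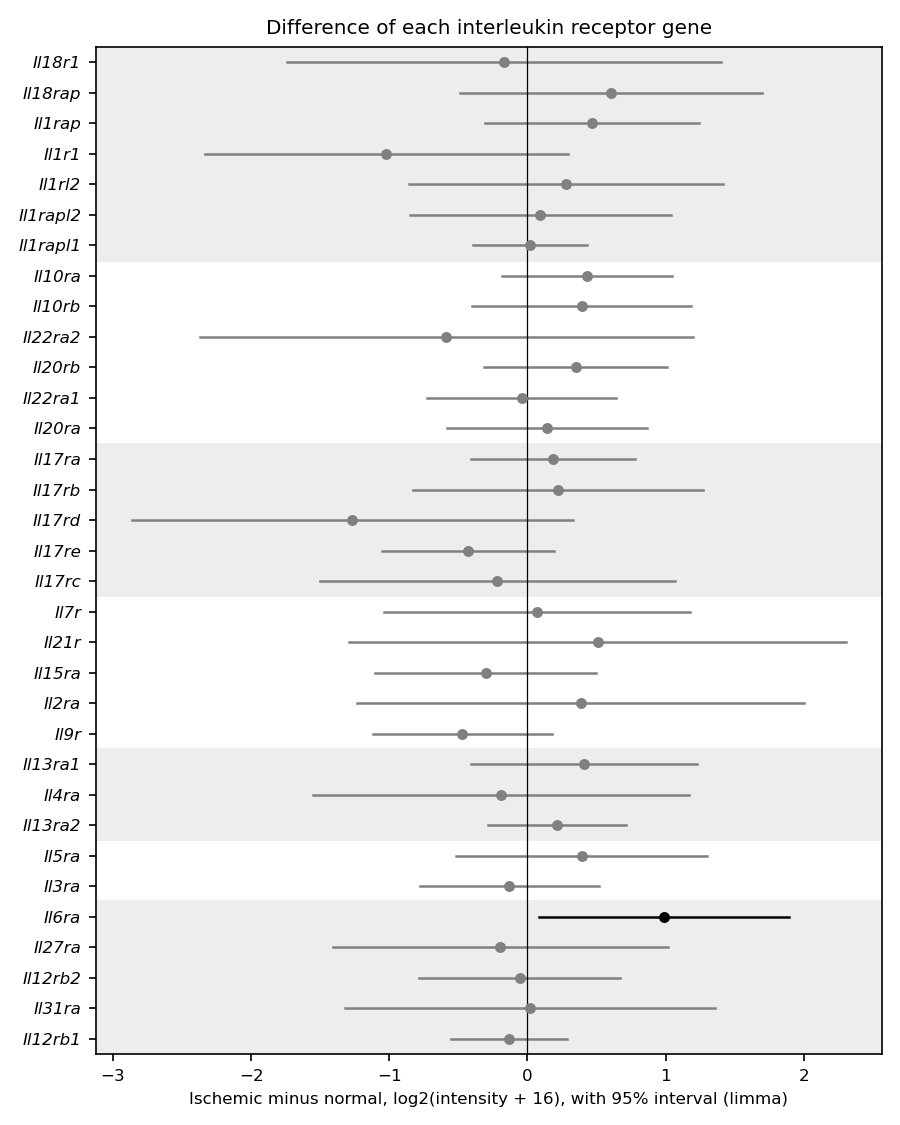
Difference between ischemic (n = 5) and normal (n = 3) arrays for each of the 33 genes, in log2(intensity + 16), with limma's 95% interval as the bar; shading separates the 7 receptor families, and black marks an unadjusted p under 0.05. Il6ra is the single black point, at 0.99, and the interval of every other gene crosses 0.

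Il6ra encodes the chain that binds IL-6 and hands it to the shared signalling chain gp130. Its values were 9.54, 10.22, 9.50, 10.31 and 9.04 in ischemic 1 to 5, and 7.96, 9.13 and 9.10 in normal 1 to 3. The groups overlapped through ischemic 5, which lay below 2 of the normal arrays, and normal 1 was the lowest of all 8. The difference was 0.99 ± 0.40 (SE, n = 5 and 3; 95% interval 0.08 to 1.90), with a limma p of 0.0361 unadjusted and 0.639 adjusted. Without normal 1 it was 0.60 (limma adjusted p = 0.993), and the adjusted p ran from 0.440 to 0.993 over all alternatives. Within the 5 arrays of low Xist signal the difference was 0.50 and within the 3 of high signal 1.92, with 1.00 when Xist class was a block. The 3 of high signal were 2 ischemic arrays and normal 1, so that 1.92 rests on the lowest array as its only control.

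The higher value of Il6ra rested on 1 of its 2 probe sets. The brighter one, 1452416_at, gave the values above. The dimmer one, 1422270_a_at, read 6.11, 7.22, 6.16, 5.55 and 6.07 in ischemic 1 to 5 and 7.30, 6.36 and 6.01 in normal 1 to 3. There normal 1 was the highest array, where it had been the lowest on the brighter set. The difference on the dimmer set was −0.34 ± 0.42 (SE), and with the mean of both sets Il6ra stood at 0.33.

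Values of marker lists are given beside Il6ra. All 12 macrophage and monocyte markers had positive differences, with a median of 0.86. Of these 6 had an unadjusted limma p under 0.05, beside 2.11% of all genes on the higher side, and 0 an adjusted one. Their summed intensity ran from 14007 to 22151 in ischemic and from 9336 to 11318 in normal arrays. Within the ischemic arrays its order was not that of Il6ra, since ischemic 3 had the highest sum and an Il6ra value of 9.50. Normal 1, the lowest array for Il6ra, had the lowest macrophage sum and also the highest proximal tubule sum (19189) and distal nephron sum (5158). The part of these cells in the Il6ra value was not tested. In sorted cells measured in bulk, more cells of a type and more RNA per cell cannot be told apart.

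The other members of the IL-6 and IL-12 families had differences from −0.20 to 0.02. Il27ra, the IL-27 receptor chain, was at 8.01, 7.63, 6.84, 6.55 and 6.38 in ischemic 1 to 5 and at 6.79, 8.43 and 6.61 in normal 1 to 3, so that a normal array was the highest. Its difference was −0.20 ± 0.53 (SE), and 0.38 without normal 2. It was −0.93 within the low-Xist and 1.03 within the high-Xist arrays, where normal 1 was the only normal array. Il12rb1, a chain shared by the IL-12 and IL-23 receptors, and Il12rb2, which completes the IL-12 receptor, differed by −0.13 ± 0.18 and −0.06 ± 0.32. Il31ra, the IL-31 receptor chain, read 7.20 in ischemic 1 and 4.61 to 4.90 in the other ischemic arrays, against 4.87 to 5.67 in normal ones. Its difference was 0.02 ± 0.59, and −0.46 without ischemic 1.

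**Figure D2:**
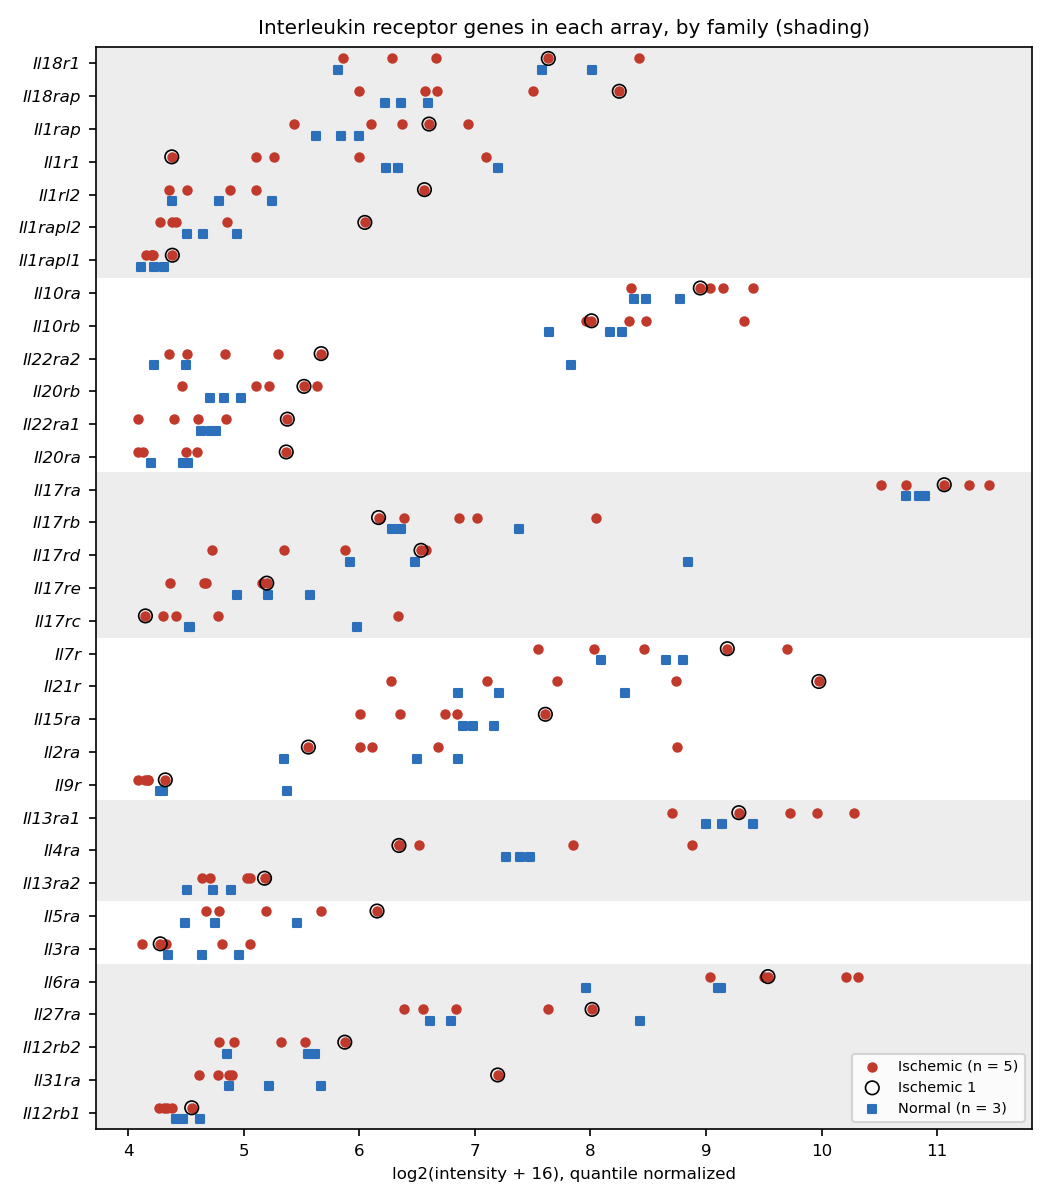
Value of each gene in every array, in log2(intensity + 16), with ischemic arrays as red circles (ischemic 1 ringed) and normal arrays as blue squares, ordered by receptor family (shading). Red and blue overlap in every row, and the ringed array is the highest point in 12 of the 33 rows, Il31ra at 7.20 among them.

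Among the IL-17 receptors, Il17ra, the chain that all well-studied IL-17 cytokines share, was bright in every array and varied little. It read 11.06, 11.45, 10.73, 11.28 and 10.51 in ischemic 1 to 5 and 10.90, 10.84 and 10.73 in normal 1 to 3. The normal arrays all lay inside the range of the ischemic ones. The difference was 0.18 ± 0.26 (SE; 95% interval −0.41 to 0.78; limma adjusted p = 0.958), and it turned to −0.11 with arrays centred on ribosomal protein genes. Differences as large as 2-fold lay outside this interval in both directions.

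Il17rd, also known as Sef and an inhibitor of fibroblast growth factor signalling, had the largest difference of the 33 in size. Its values were 6.53, 4.73, 5.35, 5.88 and 6.58 in ischemic 1 to 5 and 6.48, 8.84 and 5.92 in normal 1 to 3. Normal 2 alone lay above all other arrays. The difference was −1.27 ± 0.70 (SE, limma adjusted p = 0.832), and −0.39 without normal 2. Its dimmer probe set gave −0.26 ± 0.31, and the mean of the probe sets −0.76. Of the others, Il17rb, which binds IL-25, was at 0.22 ± 0.46, Il17rc, the partner of Il17ra for IL-17A, at −0.22 ± 0.56, and Il17re, which binds IL-17C, at −0.43 ± 0.27.

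Both chains of the IL-10 receptor were bright. Il10ra, the chain that binds IL-10, read 8.95, 9.41, 9.15, 9.03 and 8.35 in ischemic 1 to 5 and 8.38, 8.78 and 8.48 in normal 1 to 3. The other 4 ischemic arrays lay above every normal array, and ischemic 5 below all of them. The difference was 0.43 ± 0.27 (SE, limma adjusted p = 0.870). Without ischemic 5, the array that set the overlap, it was 0.59, with a limma p of 0.0384 unadjusted and 0.555 adjusted. Leaving out that array favours a lower p. Its 2 dimmer probe sets gave 0.31 ± 0.56 and 0.17 ± 0.31.

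Il10rb, which also serves the IL-22 and interferon lambda receptors, was at 8.01, 9.33, 7.96, 8.48 and 8.33 in ischemic 1 to 5 and at 7.64, 8.17 and 8.27 in normal 1 to 3. Ischemic 2 was the highest and the groups overlapped. The difference was 0.39 ± 0.35 (SE; limma adjusted p = 0.940), while its dimmer probe set gave −0.0039 ± 0.55. The remaining chains of this class, Il20ra, Il20rb and Il22ra1, were dimmer than the median gene, with differences from −0.04 to 0.35. Il22ra2, a soluble decoy for IL-22, read 7.84 in normal 2 and 4.22 to 5.67 in the other 7 arrays. Its difference of −0.59 ± 0.78 turned to 0.57 without normal 2.

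Il13ra1 and Il4ra together form a receptor for both IL-4 and IL-13. Il13ra1 read 9.28, 9.96, 9.72, 10.28 and 8.71 in ischemic 1 to 5 and 8.995, 9.14 and 9.40 in normal 1 to 3. As in Il10ra, ischemic 5 was the lowest of all 8 arrays. The difference was 0.41 ± 0.36 (SE; limma adjusted p = 0.937), and the 5 probe sets of the gene ranged from −0.16 to 0.41. Il13ra2, a decoy for IL-13, was dim and differed by 0.21 ± 0.22.

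For Il4ra the outcome depended on the probe set. On the brightest, 1421034_a_at, the values were 6.34, 6.34, 8.88, 6.51 and 7.85 in ischemic 1 to 5 and 7.27, 7.48 and 7.39 in normal 1 to 3. The ischemic arrays lay on both sides of the normal ones, which were close together, and the difference was −0.19 ± 0.60 (SE). On 1423996_a_at the values were 6.62, 5.60, 5.99, 6.78 and 5.41 against 5.05, 5.12 and 5.32. All ischemic arrays lay above all normal ones there, at 0.92 ± 0.35 (limma adjusted p = 0.694 over all 34945 probe sets with 1 gene symbol). This was the single member probe set of 61 whose groups did not overlap, beside 4.7% of all probe sets, and it was singled out after its values were seen. With the probe set of Il6ra, 2 of 61 had an unadjusted p under 0.05 (3.28%), beside 6.34% of all probe sets and 0% at an adjusted p.

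**Figure D3:**
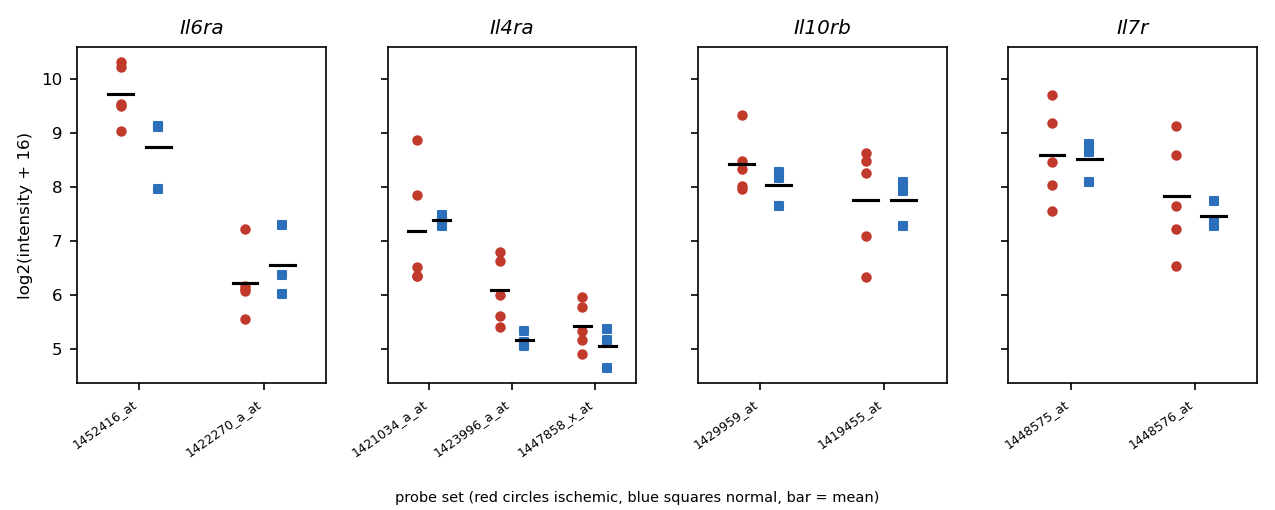
Values of each probe set of Il6ra, Il4ra, Il10rb and Il7r, in log2(intensity + 16), with ischemic arrays (n = 5) as red circles, normal arrays (n = 3) as blue squares and group means as bars. The brighter Il6ra probe set is higher in ischemic arrays by 0.99 and the dimmer one differs by −0.34, while of the Il4ra sets 1423996_a_at alone has groups apart.

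Probe sets of 1 gene disagreed elsewhere too. Of the 33 members 18 had several probe sets, and in 9 of these the differences had both signs. Besides Il6ra, Il4ra, Il10rb and Il13ra1 these were Il15ra, Il17re, Il1rap, Il1rl2 and Il2ra. The differences of those 5 genes' probe sets ran from −0.51 to 0.60.

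The receptors of IL-2, IL-7, IL-9, IL-15 and IL-21 all work with the common gamma chain and are known best from lymphocytes. Il7r, which binds IL-7 and also serves in the receptor for TSLP, read 9.18, 8.03, 8.46, 9.70 and 7.55 in ischemic 1 to 5 and 8.09, 8.80 and 8.65 in normal 1 to 3. The ischemic arrays held both the highest and the lowest value. The difference was 0.07 ± 0.48 (SE; 95% interval −1.04 to 1.18; limma adjusted p = 0.989), with either sign under other settings. Il15ra, which presents IL-15, differed by −0.30 ± 0.35 and Il9r, which was dim, by −0.47 ± 0.28. Il9r read 5.38 in normal 2 and 4.09 to 4.32 in the other 7 arrays, and differed by −0.11 without normal 2.

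Il21r, the IL-21 receptor, read 9.98, 8.74, 7.71, 7.11 and 6.27 in ischemic 1 to 5 and 8.30, 6.85 and 7.21 in normal 1 to 3. Ischemic 1 was the highest, and the lowest, ischemic 5, belonged to the same group. The difference was 0.51 ± 0.79 (SE; limma adjusted p = 0.962), and 0.0041 without ischemic 1. With the replicate number as a block it was 1.36 with an unadjusted limma p of 0.0209. That estimate rests on ischemic 1 to 3 against normal 1 to 3, since replicates 4 and 5 had no normal array. It leaves out ischemic 4 and 5, which were the lowest ischemic arrays. Il2ra, the high-affinity IL-2 receptor chain CD25, was at 8.75 in ischemic 4 and at 5.35 to 6.86 in the other arrays, with a difference of 0.39 ± 0.71 (−0.15 without ischemic 4).

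In the IL-1 receptor family the ligand-binding chain and its accessory chain had differences of opposite sign. Il1r1, which binds IL-1, read 4.38, 5.11, 6.00, 5.26 and 7.10 in ischemic 1 to 5 and 7.20, 6.23 and 6.33 in normal 1 to 3. Of the ischemic arrays 4 lay below all normal ones, and ischemic 5 lay among them. The difference was −1.02 ± 0.58 (SE, limma adjusted p = 0.846), and −0.72 without ischemic 1 or without normal 1. Without ischemic 5, the array that lay among the normal ones, it was −1.40 with an unadjusted limma p of 0.0125. Leaving out that array favours a lower p, and no member passed the adjusted threshold without it. The Il1r1 difference was −0.17 within the low-Xist and −2.46 within the high-Xist arrays, where normal 1 was the only normal array. With array weights it was −0.38, and −0.55 with the mean of both probe sets. Endothelial markers, 5 of 6 of them negative, were also brightest in ischemic 5 (summed 6332) and in normal 2 and 3 (4991 and 4798). Their sums were 1038, 945, 1424 and 2867 in ischemic 1 to 4, and 1531 in normal 1, where Il1r1 was highest. Ischemic 4 had a higher endothelial sum than ischemic 3 but a lower Il1r1 value. The proximal tubule sum was, like Il1r1, highest in normal 1 (19189). Among ischemic arrays it was highest in ischemic 5 (4775) and lowest in ischemic 1 (2857), again like Il1r1. Ischemic 2 had a higher tubule sum (4271) than ischemic 3 (3159) but a lower Il1r1 value. The part of endothelial or tubule cells in the Il1r1 value was not tested.

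Il1rap, the accessory chain of the IL-1, IL-33 and IL-36 receptors, read 6.60, 5.43, 6.94, 6.37 and 6.10 in ischemic 1 to 5 and 5.84, 5.62 and 6.00 in normal 1 to 3. Of the ischemic arrays 4 lay above all normal ones and ischemic 2 below. The difference was 0.47 ± 0.34 (SE, limma adjusted p = 0.917). Without ischemic 2, the array that set the overlap, it was 0.68 with an unadjusted limma p of 0.0356. That omission too favours a lower p, and no member passed the adjusted threshold under it. The probe sets of Il1rap ranged from −0.08 to 0.60, and their mean gave 0.23. Of the IL-18 receptor, Il18rap was at 0.61 ± 0.48 and Il18r1 at −0.17 ± 0.69. Il1rl2, the IL-36 receptor, and the mainly neuronal Il1rapl1 and Il1rapl2 were dim, with differences from 0.02 to 0.28.

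Il3ra and Il5ra, which pair with the beta chain shared with the GM-CSF receptor, were both dimmer than the median gene. Their differences were −0.13 ± 0.28 and 0.39 ± 0.40 (SE). Of all 33 members 17 had a mean above the median gene and 7 lay under the lower quartile of 4.84, so for the latter a change of receptor RNA would be hard to see. Brightness also depends on the probes, so it does not order the receptors by their amount of RNA.

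Across arrays, single samples set many of the extremes. Ischemic 1 held the highest value of 12 members (36.4%), among them Il21r, Il18rap, Il31ra, Il15ra and Il1rl2, while it held the highest value of 25.1% of all genes. B cell markers (5 of 5) and T cell markers (5 of 9) were also highest in ischemic 1. The summed intensity of the B cell list was 2465 in ischemic 1, 87.5 to 800 in the other ischemic arrays and 96.7 to 452 in normal ones. That of the T cell list was 2451 in ischemic 1, 504 to 905 in the other ischemic arrays and 481 to 1480 in normal ones. The part of these cells in the receptor values was not tested. At the other end, ischemic 5 held the lowest value of 11 members (33.3%), beside 9.93% of all genes.

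**Figure D4:**
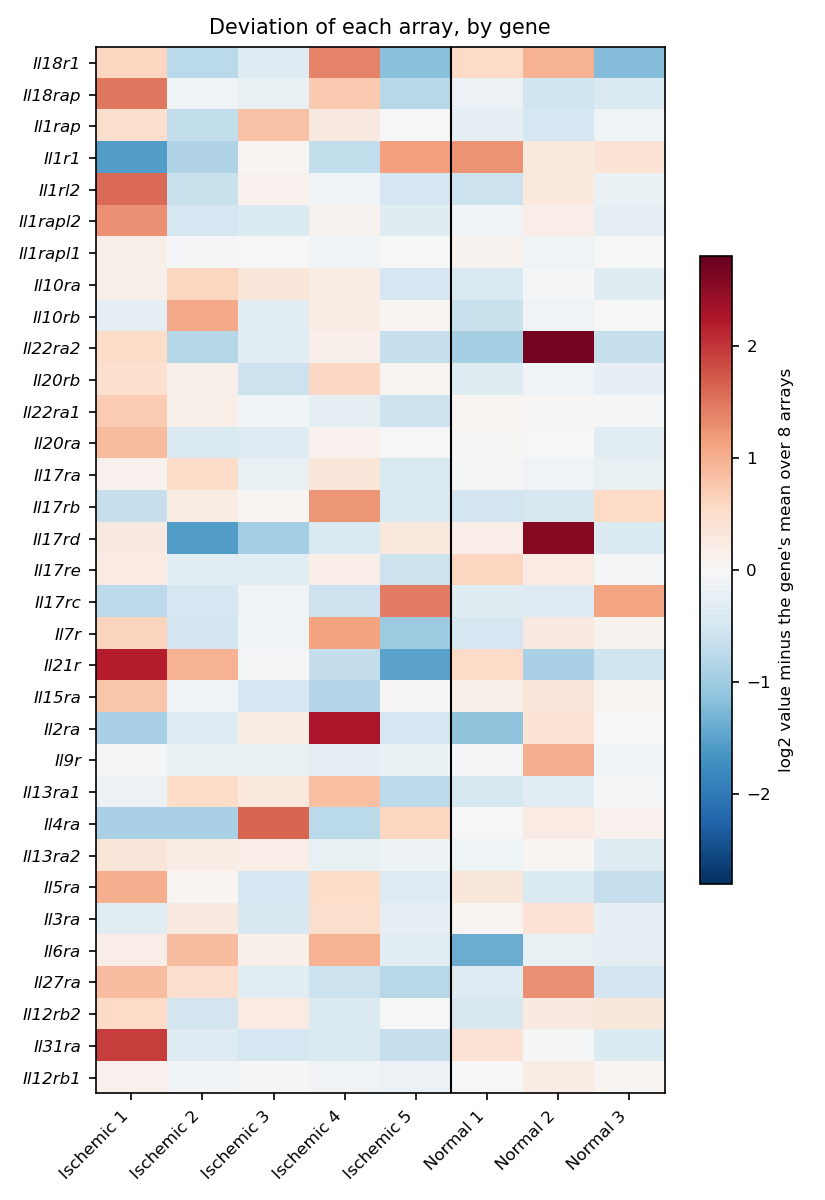
Value of each gene (rows, by family) in each array (columns, ischemic left of the line) minus the mean of that gene over the 8 arrays, in log2 units from blue (below the mean) to red (above). The darkest reds are in single arrays, as ischemic 1 for Il21r and Il31ra, ischemic 4 for Il2ra and normal 2 for Il17rd and Il22ra2, on both sides of the line.

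The spread of a member over the 8 arrays ran from 0.27 (Il1rapl1) to 4.12 (Il17rd). It exceeded 3 in Il17rd, Il21r, Il22ra2 and Il2ra, none of which had a difference past the threshold. It stayed under 1 in 5 members, of which Il17ra was the only one above the median gene.

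The ligands gave a similar picture. Of 38 interleukin and related ligands 33 were measured, 10 with a mean above the median gene. The median difference was 0.15, with 21 positive (63.6%, beside 54.8% of all genes) and 0 past an adjusted p of 0.05. Groups did not overlap in 1 ligand, Il24, at 0.32 ± 0.21 (SE), beside 1.89% of all genes with ischemic arrays higher. Il24 was dim, with a mean of 4.54. Of the 33 ligands 1 had an unadjusted limma p under 0.05, beside 2.11% of all genes on the higher side. This was Osm, which encodes oncostatin M, a cytokine of the IL-6 family. It read 8.74, 8.78, 9.86, 9.27 and 8.75 in ischemic 1 to 5 and 7.30, 7.94 and 8.90 in normal 1 to 3, so normal 3 lay among the ischemic arrays. The difference was 1.03 ± 0.41 (SE; limma adjusted p = 0.633). Il6, the ligand of Il6ra, was at 0.86 ± 0.69, and Il10, the ligand of Il10ra, at 1.09 ± 0.78. In both, normal 1 was the lowest array, at 4.68 for Il6 and 4.38 for Il10. Normal 2 and 3 read 7.05 and 7.86 for Il6, within the ischemic range of 6.97 to 8.53. For Il10 they read 6.41 and 7.33, within the ischemic range of 6.30 to 8.67.

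Among 12 partner and decoy chains outside the 33, 9 had positive differences, with a median of 0.39 and 0 past an adjusted p of 0.05. Crlf2, which joins Il7r to form the TSLP receptor, read 8.60, 8.51, 8.14, 8.36 and 8.17 in ischemic 1 to 5 and 6.39, 6.80 and 8.05 in normal 1 to 3. All ischemic arrays lay above all normal ones, though normal 3 came within 0.09 of the lowest. Of the 12 chains 1 had such groups, beside 1.89% of all genes. The difference was 1.27 ± 0.36 (SE; limma adjusted p = 0.340). Its partner Il7r, given above, differed by 0.07. Il6st, which encodes gp130, was at −0.89 ± 0.55 (limma adjusted p = 0.866). Normal 2 was its highest array at 10.60. Normal 1 and 3 read 9.09 and 9.18, within the ischemic range of 7.54 to 9.56. Il6ra, given above, differed by 0.99 on its brighter probe set and by −0.34 on its dimmer one, so an opposed change of these chains is not shown. The decoy Il1r2 was at 1.10 ± 0.76 and Il2rb at 0.34 ± 0.88. Il1r2 read 7.88 to 9.41 in ischemic arrays and 5.72, 7.80 and 9.53 in normal 1 to 3. Normal arrays thus held both its lowest and its highest value.

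Downstream of the receptors, 10 JAK kinases and STAT factors had a median of 0.07, with 7 positive and 0 at an unadjusted p under 0.05. Their brightest members were Stat3, the main STAT of IL-6 and IL-10, at 0.10 ± 0.23 (SE), and Stat6, that of IL-4 and IL-13, at −0.25 ± 0.36. The 11 adaptors of IL-1 and IL-17 receptors had a median of 0.21 with 9 positive. Of these Irak3, an inhibitor of IL-1 and Toll-like receptor signalling, read 7.63, 7.17, 6.50, 6.46 and 6.24 in ischemic 1 to 5 and 5.12, 5.35 and 6.16 in normal 1 to 3. The groups did not overlap, at 1.25 ± 0.39 (limma adjusted p = 0.392). This was 1 of the 11 adaptors, beside 1.89% of all genes with groups apart and ischemic arrays higher.

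The 13 feedback inhibitors had a median of 0.31 with 7 positive. Among them were 3 genes with an unadjusted limma p under 0.05, beside 7.13% of all genes, and 0 with an adjusted one. Ptpn6, the phosphatase SHP-1 of blood cells, was at 1.10 ± 0.34 (SE; limma adjusted p = 0.392) and Socs3, which binds gp130, at 0.85 ± 0.36 (adjusted 0.677). Cish, a SOCS family member induced by STAT5, was at −1.65 ± 0.52 (adjusted 0.412). It read 4.83 to 6.32 in ischemic arrays and 7.48, 8.43 and 6.30 in normal 1 to 3, so that the groups overlapped through normal 3.

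**Figure D5:**
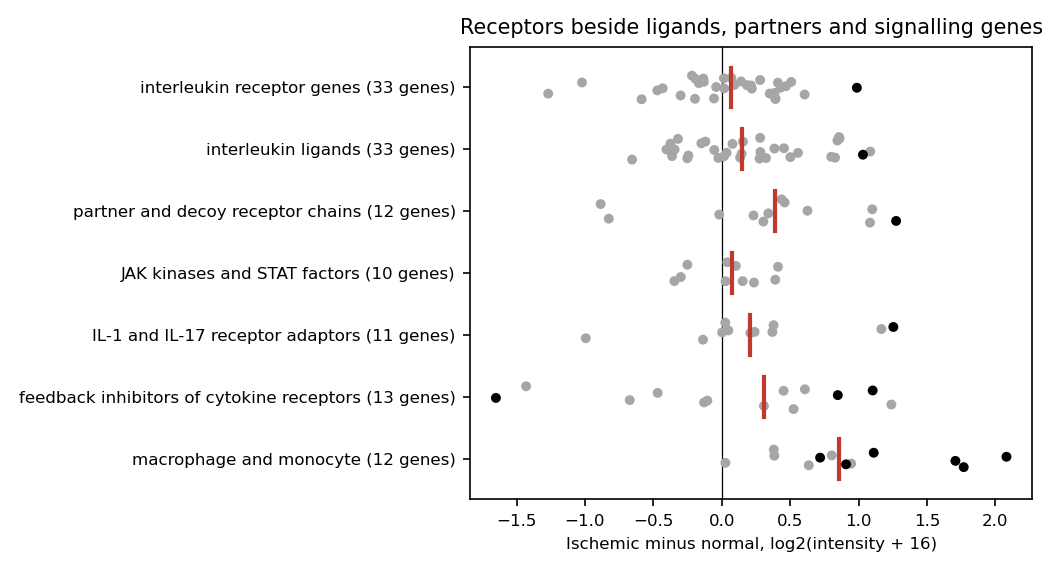
Difference of each gene (points, ischemic minus normal in log2(intensity + 16)) for the 33 receptors, their ligands, partner chains and signalling genes, and the macrophage markers, with the median of each list as a red bar and black for an unadjusted p under 0.05. Receptor differences centre near 0 with a median of 0.07 and 1 black point, while the macrophage markers centre at 0.86.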

How the data were processed

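Per the labels' protocols, RNA of sorted cells was amplified and put on Affymetrix mouse arrays, 8 in all. The authors deposited probe set intensities on a linear scale; their software and scaling: not given in the sources used here. Intensities were taken as log2(value + 16), and the 45037 probe sets that are no controls were quantile normalized, since array medians differed by up to 0.30. Probe sets with 1 gene symbol (34945) were kept, and a gene was its brightest one, which gave 18193 genes; all 33 members matched a RefSeq gene ID. Groups came from the titles. Limma 3.58.1 (lmFit, eBayes) in R 4.3.3 was fitted on all genes, with Benjamini-Hochberg adjustment and a threshold of 0.05, no brightness filter and no block. It was tested on simulated data with independent noise in each array and changes placed in genes above the median brightness. That setting holds no deviating array and no change in a dim gene, and its outcome is not reported here. The number of arrays limits the precision.

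The members and lists were chosen with earlier results of these data known. Values of each array were to be given for members with an unadjusted p under 0.05, with groups apart, or among the 8 brightest; those of Il27ra, Il31ra, Il9r, Il17rd, Il22ra2, Il2ra, Il1r1 and Il1rap, and the second Il4ra probe set, were added after they were seen. From pathway lists the rule named up to 4 genes with an unadjusted p under 0.05 or else the 2 brightest. Il6, Il10, Il6st, Il1r2 and Il2rb were added as ligands or partners, and Il24 because its groups did not overlap. Alternatives were other scalings, pseudocounts, brightness filters, probe set rules, variance models, array weights, the replicate number or Xist class as a block, each Xist class alone, and each array left out. Replicates 4 and 5 had no normal array, so the replicate block compared ischemic 1 to 3 with normal 1 to 3. The high-Xist class held 2 ischemic arrays and 1 normal array.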

Additional observations from a re-analysis of the deposited data

Results flagged for a closer look

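In the ischemic group 3 of the 33 members had 1 array whose gap to its nearest neighbour exceeded the 95% critical value of Dixon's test for 5 samples (0.71 of the range), where chance flags about 1 in 20. Il31ra was at 7.197 in ischemic 1, with the next array at 4.898. Il1rapl1 was at 4.382 in ischemic 1 against 4.212 for the next, a small gap in a dim gene. Il17rc, a chain of the IL-17A receptor, was at 6.336 in ischemic 5, with the next at 4.781; among normal arrays it was at 5.98 in normal 3.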

How the results depend on the processing

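No member had an adjusted p under 0.05 under any of the 23 alternatives. The members' median difference of 0.07 ran from −0.11 to 0.36 over them, with either sign. It moved by less than 0.35, the SD within groups of the member median of single arrays. That SD is not the error of a group difference and is large beside 0.07, so it is a loose yardstick. Counts at an unadjusted p under 0.05 were small throughout. On the higher side the count of 1 became 2 with the replicate number as a block (Il6ra and Il21r), and 0 with arrays centred on their median or on ribosomal protein genes, a pseudocount of 1, the mean of all probe sets, array weights or the low-Xist arrays alone. It ran from 0 to 2 with 1 array left out: 0 without ischemic 4 or normal 1, and 2 without ischemic 5. Without ischemic 2 it was still 1, but that gene was Il1rap. On the lower side the count of 0 became 1 with a pseudocount of 1 or limma's trend (Il9r), and in the high-Xist arrays (Il1r1), and ran from 0 to 1 with 1 array left out (1 without ischemic 5 or normal 3). Members with groups apart numbered 7 in the low-Xist arrays (21.2%, beside 20.8% of all genes), 17 in the high-Xist ones (51.5%, beside 67.7%) and 0 to 3 with 1 array left out (at most 9.09%, beside 6.89% to 14.1%), where fewer arrays make separation easier.

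Over all genes the count past the adjusted threshold was 161 with ribosomal centring, 31 with limma's trend, 15 above the 40th percentile of brightness, 5 with array weights, 2 with the mean of probe sets, 1 with a pseudocount of 1 or Xist class as a block, and 0 to 113 with 1 array left out (113 without normal 3).

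Among the 8 brightest members, Il6ra, Il10ra, Il13ra1 and Il21r kept their sign in every alternative, though Il21r was at 7.94e-05 in the low-Xist arrays. Il10rb turned to −0.0039 with the most variable probe set. Il17ra turned to −0.0012 with median centring and −0.11 with ribosomal centring. Il4ra turned to 0.36 with the mean of probe sets or array weights and 0.31 in the low-Xist arrays, and ran from −0.61 to 0.020 with 1 array left out. Il7r turned to −0.13 with median centring, −0.24 with ribosomal centring, −0.31 with array weights and −0.16 in the low-Xist arrays, and ran from −0.21 to 0.33 with 1 array left out. The cause was not tested. Replicate numbers were not taken as pairs, since deviations of same-numbered arrays correlated at 0.16, −0.09 and 0.10.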
